A study of Mus musculus with 15 samples.

Results

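The insulin-like growth factor (IGF) axis was followed in mouse dental mesenchymal cells (mDMCs) through 10 genes: the ligands Igf1 and Igf2, the receptors Igf1r and Igf2r, and the binding proteins Igfbp2, Igfbp3, Igfbp4, Igfbp5, Igfbp6 and Igfbp7. The genes were chosen by name with earlier results of these data known, as were the gene lists used further on. Each has 1 row in the expression table, and the table holds 11960 named genes in all. The cells came from tooth germs of the mandibular first molar of ICR mouse embryos, whose mesenchyme was freed from the epithelium with dispase and dissociated with trypsin. Freshly isolated mDMCs (0 h) gave 3 libraries, and cells cultured in DMEM with fetal bovine serum gave 2 libraries at 12 h and 3 each at 24, 36 and 48 h. A single library was made from undissociated dental mesenchymal tissue. Nothing in the labels says whether replicates came from separate cultures or animals, and the study's methods describe sequencing of each sample in duplicate or triplicate. The p-values therefore measure only the spread between these libraries, which may be technical.

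IGF1 and IGF2 are secreted growth factors that act mainly through the receptor tyrosine kinase IGF1R, upstream of the PI3K and AKT kinases and of the MAP kinases. IGF2R has no kinase activity and takes IGF2 into the cell for degradation in lysosomes, and it also sorts lysosomal enzymes. The binding proteins IGFBP2 to IGFBP6 hold the ligands in the extracellular space with high affinity and can restrain or prolong their action, and IGFBP7 binds them only weakly. In the tooth germ, IGFs are known for effects on growth and on the differentiation of odontoblasts and ameloblasts.

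Expression was given as a score, a whole number already brought to a common distribution across libraries, so that every library has the same median (721) and the same maximum (127101). Because high scores take a limited set of values, equal scores recur, and Igf2r took only 9 distinct values in the 15 libraries. The depth behind a score is unknown. Replicates 1 and 2 of 36 h lay closer together than any other pair of replicates (root mean square log2 difference of 0.138 over 11039 transcripts, against 0.264 to 0.502 for the other pairs), and without counts they could not be set against sampling noise. All 10 dental mesenchyme markers had a row, and their summed score was 102886 to 119393 at 0 h and 64522 to 69787 at 48 h. Markers of other cells were also present at 0 h. The endothelial sum (10 markers) lay between 10971 and 12972 at 0 h and between 2029 and 3592 at 48 h, with Tie1 at 0 or 1 and Cldn5 at 0 in all 48 h libraries. The macrophage sum (6 of 11 with a row) was at least 1359 at 0 h and at most 592 at 48 h, the red blood cell sum (7 of 8 with a row) at least 97833 and at most 168, and the Schwann and glial sum (2 of 6 with a row) at least 219 and at most 71. The epithelial sum (7 of 9 with a row) was 13667 in replicate 1 of 0 h, at most 1857 in replicates 2 and 3, and at most 1181 at 48 h. The pericyte and smooth muscle sum (9 markers) was at most 15780 at 0 h and at least 265964 at 48 h, and Tagln and Acta2, contractile genes that were at the maximum of 127101 in all 48 h libraries, made up nearly all of the 48 h sum. Of the 9 markers, 4 were higher (Tagln, Acta2, Myh11 and Cspg4) and 4 lower (Rgs5, Kcnj8, Abcc9 and Notch3) at 48 h, with a median log2 difference of 0.05. Over all transcripts tested 37.1% were higher and 34% lower at 48 h.

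Of the 10 genes, 8 changed within the first 12 h and the same 8 differed from 0 h at every later time. Igf1r, Igfbp2, Igfbp6 and Igfbp7 were higher and Igf1, Igfbp3, Igfbp4 and Igfbp5 were lower at 12, 24, 36 and 48 h, by limma on log2(score + 1) with Benjamini-Hochberg adjustment over 12079 transcripts and a threshold of 0.05. The counts of 4 higher and 4 lower stand against a wide background. At 12 h 29.9% of all transcripts tested passed as higher and 28.3% as lower. These shares were 35% and 31.8% at 24 h, 36% and 34% at 36 h, then 37.1% and 34% at 48 h. The 48 h libraries lay entirely above the 0 h ones for the 4 higher genes and entirely below for the 4 lower ones, which held for 37.3% and 34.6% of all transcripts. The median size of the difference at 48 h was 2.23 on the log2 scale over the 10 genes and 0.63 over all transcripts. Because the genes were chosen with earlier results known, that contrast is a description only. A moderated F-test over all 5 time points called every member but Igf2 (adjusted p = 0.282), and called 80% of all transcripts.

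**Figure D1:**
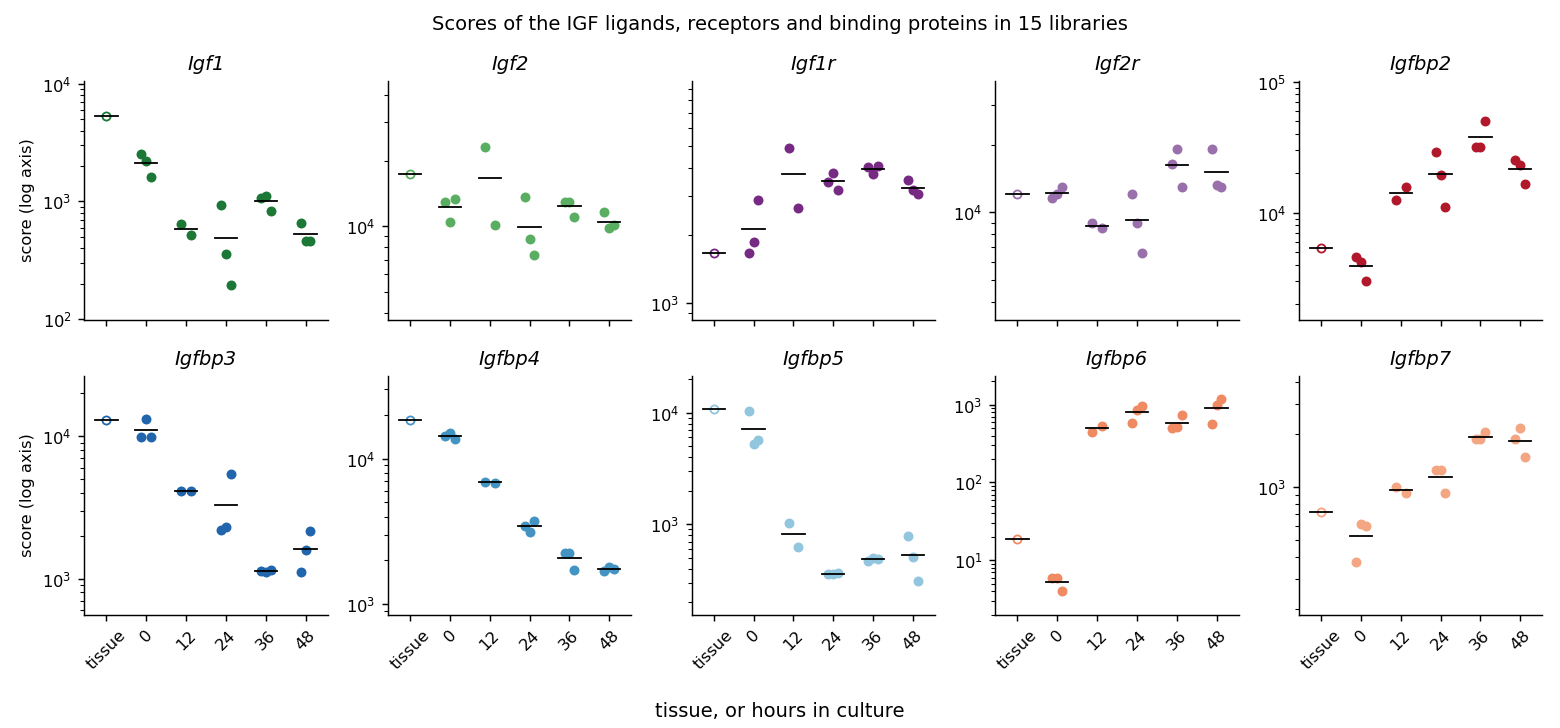
Score (log axis, unit of the deposited table) of each of the 10 genes in the tissue library (open circle) and in the libraries of 0, 12, 24, 36 and 48 h (filled circles), with the group mean as a line. Igfbp6 went from 4 to 6 at 0 h to 448 or more in every cultured library, while Igfbp4 stepped down from 13655 to 15089 at 0 h to 1696 to 1807 at 48 h.

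Igf1 fell early in culture while Igf2 showed no detected change. Igf1 scored 2546, 2228 and 1621 at 0 h, 646 and 514 at 12 h, 927, 355 and 196 at 24 h, 1068, 1117 and 824 at 36 h, then 662, 464 and 458 at 48 h. Every cultured library lay below every 0 h library, which was so for 22.6% of all transcripts. The fall was 3.63-fold by 12 h (log2 difference -1.86, SE 0.46, adjusted p = 0.00381) and 4.02-fold by 48 h (-2.01, SE 0.41, adjusted p = 0.000712). Among the culture times the mean was highest at 36 h (1003 ± 157, SD, n = 3), and the difference from 0 h was then -1.07 (SE 0.41, adjusted p = 0.0326). That call was lost without replicate 1 or 2 of 0 h or replicate 1 or 3 of 36 h (adjusted p 0.0557 to 0.099) and when replicates 1 and 2 of 36 h were averaged as 1 sample (0.0525). In bulk RNA, fewer cells of a type and less RNA per cell cannot be told apart.

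Igf2, the fetal ligand, is imprinted and expressed from the paternal allele. It scored 12945, 10427 and 13280 at 0 h, 23192 and 10075 at 12 h, 13651, 8724 and 7393 at 24 h, 12945, 12945 and 11057 at 36 h, then 11599, 9788 and 10075 at 48 h. The groups overlapped throughout, and the 2 libraries of 12 h lay far apart. The log2 difference from 0 h to 48 h was -0.22 (SE 0.27, adjusted p = 0.484), with a 95% interval of -0.80 to 0.36. At 12 h it was 0.33 (adjusted p = 0.366), and the value turned on the library: 0.93 without replicate 2 of 12 h (adjusted p = 0.0131) and -0.27 without replicate 1 (adjusted p = 0.432). Per kilobase of transcript, the Igf2 score was 2.25 ± 0.721 times that of Igf1 at 0 h (SD, n = 3) and 1.23 times in tissue. In culture the ratio was 10.4 ± 4.32 at 12 h (n = 2) and 9.63 ± 4.33 at 24 h (n = 3). It was 4.64 ± 0.353 at 36 h and 7.58 ± 0.888 at 48 h (n = 3 each). Its size depends on the scale: without division by length it was 5.99 ± 1.92 at 0 h and 20.2 ± 2.37 at 48 h. On both scales the ranges of 0 h and 48 h did not overlap.

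The receptors differed in their course. Igf1r, the signalling receptor, scored 1671, 1857 and 2885 at 0 h, 4885 and 2646 at 12 h, 3461, 3788 and 3191 at 24 h, 4033, 3762 and 4074 at 36 h, then 3522, 3175 and 3058 at 48 h. Replicate 3 of 0 h overlapped the 12 h range, and all libraries of 24, 36 and 48 h lay above 0 h. The rise was 1.73-fold at 12 h (log2 difference 0.79, SE 0.24, adjusted p = 0.012), 1.90-fold at 36 h (0.93, SE 0.21, adjusted p = 0.00166) and 1.56-fold at 48 h (0.64, SE 0.21, adjusted p = 0.0155). The call at 12 h was lost when 0 h and 12 h were fitted alone (adjusted p = 0.0984). The calls at 12 h and 48 h also rested on single libraries: at 12 h the difference was 0.35 without replicate 1 of 12 h (adjusted p = 0.228), and at 48 h the adjusted p was 0.0716, 0.0576 and 0.0511 without replicate 1 of 0 h, replicate 2 of 0 h and replicate 1 of 48 h. No difference of Igf1r among the 4 culture times was detected by the F-test (adjusted p = 0.669), which called 41.9% of all transcripts.

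Igf2r, the clearance receptor, differed among the culture times and passed no test against 0 h in the fit of all 14 libraries without a replicate block. It scored 11622, 12073 and 12961 at 0 h, 8945 and 8523 at 12 h, 12073, 8945 and 6628 at 24 h, 16511, 19244 and 12961 at 36 h, then 19244, 13290 and 12961 at 48 h. The lowest scores were at 12 and 24 h and the highest at 36 and 48 h, with overlap between 0 h and all but 12 h. The log2 difference from 0 h was -0.48 at 12 h (adjusted p = 0.0948), -0.45 at 24 h (0.0754), 0.39 at 36 h (0.111) and 0.29 at 48 h (0.234, 95% interval -0.17 to 0.74). It passed at 24 h without replicate 1 of 24 h (adjusted p = 0.0114) and at 36 h without replicate 3 of 36 h (0.0483). When each pair of times was fitted alone it passed at 12 h (0.00766) and 36 h (0.0405). With the replicate number as a block it passed as lower at 12 h (0.0268) and 24 h (0.0419). The culture times differed among themselves by the F-test (adjusted p = 0.00843), and the score was 1.79-fold higher at 36 h than at 24 h (log2 difference 0.84, SE 0.21, adjusted p = 0.0161). That step missed the threshold without replicate 3 of 24 h (adjusted p = 0.0692), without replicate 1 or 2 of 36 h (0.0576 and 0.0723), and with those 2 libraries averaged (0.0641). The antisense RNA Airn overlaps Igf2r and has a row of its own, and whether the counting used strand is not stated.

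**Figure D2:**
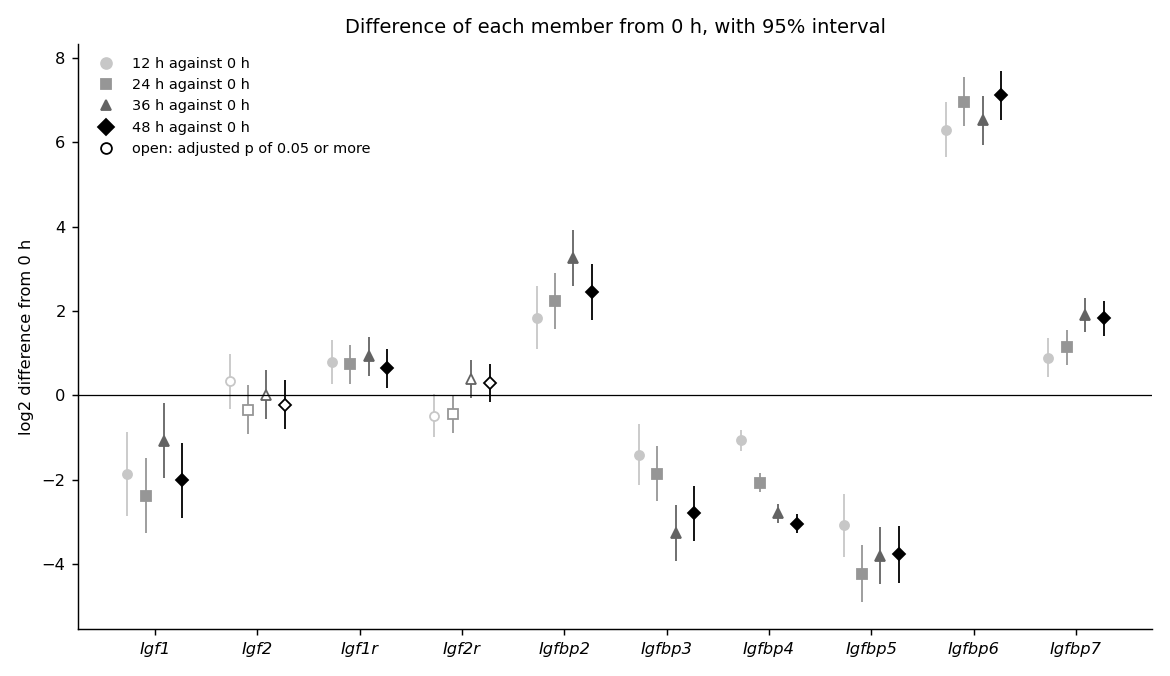
Log2 difference from 0 h of each gene at 12, 24, 36 and 48 h, with 95% intervals from the limma fit over 14 libraries; filled symbols passed an adjusted p of 0.05 and open symbols did not. Igf2 and Igf2r have open symbols at all 4 times, and the other 8 genes have filled ones.

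The binding-protein genes split by direction: Igfbp3, Igfbp4 and Igfbp5 fell and Igfbp2, Igfbp6 and Igfbp7 rose. On chromosome 1 (GRCm38), Igfbp2 (72824503 to 72852474, plus strand, 4 exons) and Igfbp5 (72857932 to 72874884, minus strand, 4 exons) lie end to end with 5457 bp between them, and they moved in opposite directions. Igfbp6 lies on chromosome 15 (102144362 to 102149511, plus strand, 4 exons) and Igfbp7 on chromosome 5 (77349248 to 77408040, minus strand, 6 exons). Igfbp3 and Igfbp4 share chromosome 11 (7206086 to 7213897, minus strand, and 99041244 to 99054392, plus strand). The 250 bases upstream of the annotated start are shown for the neighbours Igfbp2 and Igfbp5 and for Igfbp6, which had the largest rise of the 10 genes at 48 h. They are from RefSeq (GRCm38.p6), at chr1:72824230-72824479 on the plus strand, chr1:72874866-72875115 on the minus strand and chr15:102143936-102144185 on the plus strand, and capitals mark a match to one of the motifs described after them.
Igfbp2: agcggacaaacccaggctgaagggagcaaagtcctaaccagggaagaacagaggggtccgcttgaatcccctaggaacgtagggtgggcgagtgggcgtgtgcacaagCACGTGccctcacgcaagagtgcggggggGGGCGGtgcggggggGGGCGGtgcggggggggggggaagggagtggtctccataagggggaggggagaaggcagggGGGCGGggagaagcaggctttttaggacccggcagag
Igfbp5: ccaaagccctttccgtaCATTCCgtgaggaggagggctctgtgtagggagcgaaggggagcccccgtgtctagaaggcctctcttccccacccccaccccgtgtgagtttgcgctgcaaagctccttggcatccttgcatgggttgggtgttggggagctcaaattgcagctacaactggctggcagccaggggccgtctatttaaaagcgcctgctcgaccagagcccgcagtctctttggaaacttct
Igfbp6: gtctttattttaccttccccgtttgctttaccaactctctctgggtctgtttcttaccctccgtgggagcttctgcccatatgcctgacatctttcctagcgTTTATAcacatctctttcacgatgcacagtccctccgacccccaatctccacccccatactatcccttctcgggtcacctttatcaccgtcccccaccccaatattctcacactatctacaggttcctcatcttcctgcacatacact
In these windows 6 motifs were searched on both strands: the TATA box TATAAA, the GC box GGGCGG, the E-box CACGTG, the AP-1 motif TGANTCA, the FoxO motif GTAAACA and the TEAD motif GGAATG. The Igfbp2 window held 3 GC boxes and 1 E-box, the Igfbp5 window 1 TEAD motif, and the Igfbp6 window 1 TATA box on the opposite strand. Over the windows of all 10 genes, 5 held a GC box (Igf2, Igf1r, Igf2r, Igfbp2 and Igfbp7) and 2 a TATA box (Igfbp4 and Igfbp6), against 32.7% and 12.4% of the 32851 annotated promoters. The E-box was in 2 windows (Igf2r and Igfbp2), the TEAD motif in 2 (Igf2 and Igfbp5), the AP-1 motif in 1 (Igf1) and the FoxO motif in 0, against 6.02%, 12.6%, 6.75% and 3.17% of all promoters. The annotated start lay 2846 bp from the start of the listed transcript for Igf1, 570 bp for Igf1r, 176 bp for Igfbp6 and at most 42 bp for the others.

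Igfbp4, an inhibitor of IGF action that is cleaved by the protease PAPP-A, fell in steps with little spread. It scored 14364, 15089 and 13655 at 0 h, 6928 and 6796 at 12 h, 3470, 3116 and 3731 at 24 h, 2234, 2267 and 1733 at 36 h, then 1696, 1807 and 1739 at 48 h. Groups did not overlap from 0 h through 36 h, and the 36 h and 48 h ranges did. The level fell 2.09-fold by 12 h (log2 difference -1.07, SE 0.11, adjusted p = 5.91e-06) and fell again from 12 h to 24 h (95% interval of the log2 difference -1.25 to -0.75, adjusted p = 0.000303). By 48 h it was 8.22-fold below 0 h (-3.04, SE 0.10, adjusted p = 9.92e-11).

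Igfbp3, in serum the main carrier of IGFs, scored 9812, 13304 and 9812 at 0 h, 4092 and 4116 at 12 h, 2188, 2286 and 5388 at 24 h, 1133, 1118 and 1142 at 36 h, then 1114, 1576 and 2164 at 48 h. All cultured libraries were below 0 h, and replicate 3 of 24 h was above the 12 h libraries. The fall was 2.65-fold at 12 h (log2 difference -1.40, SE 0.34, adjusted p = 0.00316) and 6.96-fold at 48 h (-2.80, SE 0.30, adjusted p = 2.84e-06). From 24 h to 36 h it fell 2.65-fold (-1.41, SE 0.30, adjusted p = 0.00828), and leaving out any 1 library gave adjusted p-values of 0.00531 to 0.0327.

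Igfbp5, which also binds to extracellular matrix, had the largest fall of the 10 genes and reached it by 24 h. It scored 10466, 5224 and 5721 at 0 h, 1026 and 623 at 12 h, 355, 362 and 365 at 24 h, 473, 502 and 487 at 36 h, then 789, 507 and 309 at 48 h. Replicate 1 of 0 h stood above the others, and all cultured libraries lay below 0 h. The fall was 8.48-fold at 12 h (log2 difference -3.08, SE 0.35, adjusted p = 9.18e-06), 18.8-fold at 24 h (-4.23, SE 0.31, adjusted p = 1.16e-07) and 13.6-fold at 48 h (-3.77, SE 0.31, adjusted p = 2.60e-07), the last ranging from -4.10 to -3.42 without any one library. No difference among the culture times was detected (F-test, adjusted p = 0.0877), although with 24 h and 36 h fitted alone Igfbp5 passed as higher at 36 h (log2 difference 0.43, adjusted p = 0.00719, against 0.348 with all libraries).

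The endothelial markers fell over the same interval as Igf1, Igfbp3, Igfbp4 and Igfbp5: 9 of 10 were lower and 1 higher at 12 h, and so at 48 h, with a median log2 difference of -4.84 at 48 h. Of the 6 macrophage markers, 5 were lower and 1, Cd14, was higher at 48 h, and of the 10 dental mesenchyme markers 7 were lower. All 7 red blood cell markers were lower at 12 h and at 48 h. Of the 7 epithelial markers 1 was lower at 12 h and 5 at 48 h, and both Schwann and glial markers were lower at 48 h. Over all transcripts the share lower was 28.3% at 12 h and 34% at 48 h. The part of these cells in the falls of the IGF genes was not tested.

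Igfbp2, a binding protein of fetal tissues with a preference for IGF2, rose in every cultured group. It scored 4576, 4222 and 3039 at 0 h, 12502 and 15608 at 12 h, 28813, 19244 and 11073 at 24 h, 31828, 31828 and 50457 at 36 h, then 25036, 23215 and 16511 at 48 h. Every cultured library exceeded every 0 h library, as for 24.6% of all transcripts. The rise was 3.59-fold at 12 h (log2 difference 1.85, SE 0.34, adjusted p = 0.000533), 9.55-fold at 36 h (3.25, SE 0.31, adjusted p = 9.37e-07) and 5.47-fold at 48 h (2.45, SE 0.31, adjusted p = 1.15e-05). The lower score at 48 h than at 36 h had an unadjusted p of 0.0218 and an adjusted p of 0.282.

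Igfbp6, which binds IGF2 far more tightly than IGF1, went from barely measured to a mid-range score. It scored 6, 6 and 4 at 0 h and 19 in tissue, against 448 and 537 at 12 h, 587, 847 and 962 at 24 h, 504, 509 and 730 at 36 h, then 568, 979 and 1171 at 48 h. Every cultured library was above the 0 h and tissue scores. The log2 difference was 6.30 at 12 h (SE 0.30, adjusted p = 6.66e-09) and 7.12 at 48 h (SE 0.27, adjusted p = 2.57e-10). Its size depends on how the low 0 h scores are treated, and at 48 h it ranged from 3.20 with a pseudocount of 100 to 7.34 with a pseudocount of 0.1. Among the culture times the F-test gave an adjusted p of 0.0987.

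Igfbp7, a secreted protein with weak IGF binding, rose at 12 h and again between 24 h and 36 h. It scored 373, 614 and 597 at 0 h, 997 and 923 at 12 h, 1254, 1251 and 928 at 24 h, 1878, 1873 and 2057 at 36 h, then 1889, 2167 and 1486 at 48 h. All cultured libraries were above 0 h. The rise was 1.86-fold at 12 h (log2 difference 0.90, SE 0.21, adjusted p = 0.00289) and 3.54-fold at 48 h (1.82, SE 0.19, adjusted p = 2.06e-06), with a step of 1.71-fold from 24 h to 36 h (0.77, SE 0.19, adjusted p = 0.0153). Without replicate 3 of 24 h that step was 0.63 (adjusted p = 0.0697). The gene Polr2b overlaps Igfbp7 on the other strand and also has a row.

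Read as shares of the summed Igfbp score per kilobase of transcript, the make-up of the binding-protein transcripts turned over. Igfbp3, Igfbp4 and Igfbp5 together made 73.3% ± 1.88 of the sum at 0 h (SD, n = 3) and 71.5% in tissue, then 23.3% ± 2.85 at 12 h (n = 2), 13.9% ± 9.19 at 24 h, 3.55% ± 0.997 at 36 h and 6.26% ± 2.05 at 48 h (n = 3 each). Igfbp2 alone went from 23.2% ± 2.90 at 0 h to 68.7% ± 3.60 at 12 h, 89.7% ± 1.97 at 36 h and 81.8% ± 4.31 at 48 h. Igfbp6 rose from 0.0368% ± 0.00463 to 4.27% ± 2.09 and Igfbp7 from 3.44% ± 1.03 to 7.66% ± 0.639 between 0 h and 48 h. In each case the 0 h and 48 h ranges did not overlap. Such a comparison of 3 with 3 libraries was left without a test, and the shares of one library are not independent of each other. The 24 h libraries spread most: Igfbp3, Igfbp4 and Igfbp5 made 24.4% in replicate 3 and 7.33% in replicate 1. The sum itself was 12936 ± 1378 per kilobase at 0 h and 20084 ± 3272 at 48 h, whereas without division by length it was 36961 ± 3625 and 28241 ± 4231, so its direction depends on the scale. The shares kept their direction between 0 h and 48 h without division by length, but their sizes moved: Igfbp2 was then 10.6% at 0 h and 76.0% at 48 h, Igfbp7 1.45% and 6.53%, and Igfbp3, Igfbp4 and Igfbp5 were 6.02%, 6.29% and 1.85% at 48 h.

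**Figure D3:**
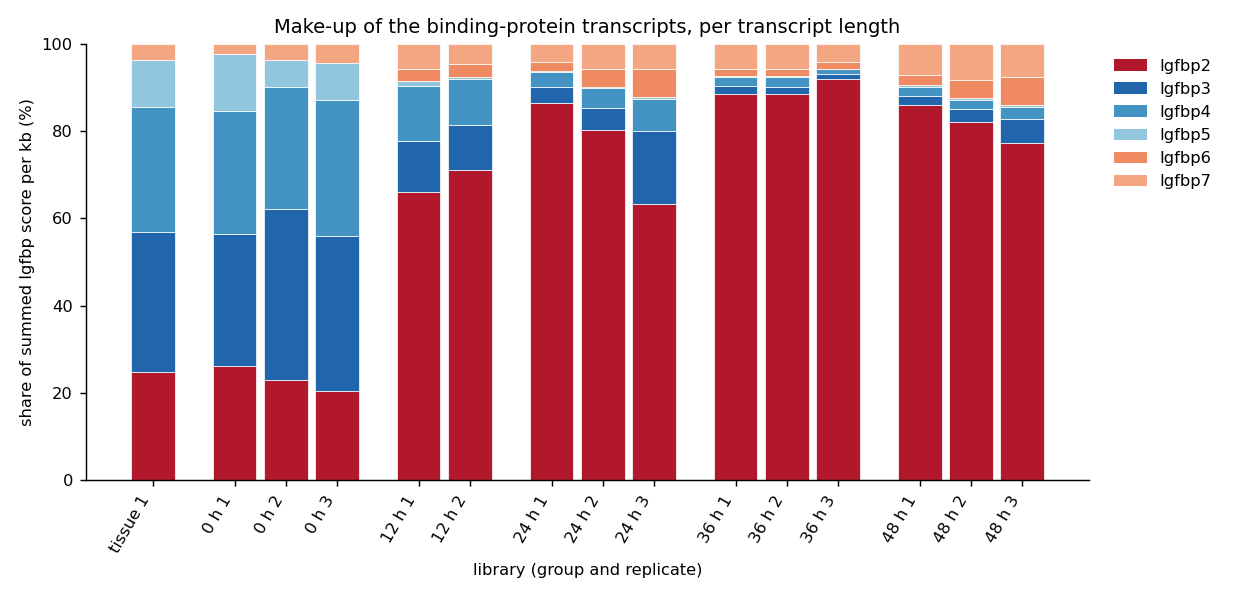
Share (%) of each binding-protein gene in the summed Igfbp score per kilobase of transcript, for each of the 15 libraries. Igfbp3, Igfbp4 and Igfbp5 (blues) fill 71.4% to 75.2% of the bar at 0 h and 4.64% to 8.57% at 48 h, and Igfbp2 (red) fills 77.4% to 86.0% at 48 h.

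Within culture, the interval from 24 h to 36 h held more calls among the 10 genes than the interval before or after it, a lead that rested on replicate 3 of 24 h: without that library it and the interval before it each held 2 calls. From 12 h to 24 h, 0 members were higher and 1, Igfbp4, was lower, against 4.59% and 3.67% of all transcripts. The count lower reached 2 or 3 without replicate 1 of 0 h, replicate 2 of 12 h, replicate 1 or 3 of 24 h, or replicate 1 or 3 of 48 h, as Igf1, Igf2, Igfbp3 or Igfbp5 then passed. From 24 h to 36 h, 4 were higher (Igf1, Igf2r, Igfbp2 and Igfbp7) and 2 lower (Igfbp3 and Igfbp4), against 10% and 9.64%. The 2 falls passed the same threshold in every alternative fit, and the 4 rises did not: Igf1 (log2 difference 1.31, adjusted p = 0.0417) missed the threshold without replicate 2 of 0 h, replicate 2 or 3 of 24 h, any of 36 h, or replicate 2 or 3 of 48 h (0.0518 to 0.159), without the intensity trend (0.0553) and with the 2 times fitted alone (0.1005). Igfbp2 (1.02, adjusted p = 0.0358) missed it without replicate 2 or 3 of 24 h or any of 36 h (0.0641 to 0.141), and with the 2 times fitted alone (0.0731). Leaving out any one of replicates 2 and 3 of 24 h or of the 3 replicates of 36 h changed the count of rises by more than 1.5 times, and it ranged from 0 to 4. With replicates 1 and 2 of 36 h averaged, 1 rise was left, Igfbp7.

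From 36 h to 48 h limma called 0 members in either direction, against 0% higher and 0.0248% lower among all transcripts. At an unadjusted p under 0.05 there were 4 members, Igf1, Igfbp2, Igfbp4 and Igfbp6, and 13.4% of all transcripts. From 24 h to 48 h, Igf2r (log2 difference 0.74, adjusted p = 0.0233) and Igfbp7 (0.69, adjusted p = 0.0201) were higher and Igfbp3 (-0.94, adjusted p = 0.039) and Igfbp4 (-0.97, adjusted p = 8.93e-05) were lower, against 12.2% and 11.7%. Igfbp4 was the only one of the 4 that passed whichever library was left out. Without replicate 3 of 24 h, the adjusted p was 0.0927 for Igf2r, 0.0831 for Igfbp7 and 0.118 for Igfbp3. Without replicate 1 of 48 h it was 0.0996, 0.062 and 0.156 for the same 3 genes, without replicate 2 of 24 h it was 0.0612 for Igf2r, and without replicate 2 of 48 h it was 0.0781 for Igfbp7 and 0.0811 for Igfbp3. The Igfbp3 call was also lost without any one 36 h library (0.0506 to 0.0537).

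The tissue library, with no replicate and so no test, held most of the IGF genes at or above their 0 h scores. Of the 10 members, 7 scored above all 0 h libraries in tissue, against 29.7% of all transcripts, and 0 scored below them, against 32%. Igf1 was 5281 in tissue, 2.52-fold the 0 h mean on the log2(score + 1) scale, and Igfbp6 was 19, or 3.20-fold. These were the 2 members more than 2-fold higher, against 2.56% of all transcripts, and 0 were more than 2-fold lower, against 1.22%. Igf2 (17348), Igfbp2 (5426), Igfbp4 (18515), Igfbp5 (10727) and Igfbp7 (721) were also above every 0 h library, by 1.29-fold to 1.58-fold. Igf1r (1671) equalled the lowest 0 h library, and Igf2r (12073) and Igfbp3 (12983) lay within the 0 h range. The marker sums of other cells in tissue were above every 0 h library for the endothelial (15668), macrophage (3214) and Schwann and glial (712) lists, within the 0 h range for the epithelial (4880) and red blood cell (135856) lists, and below it for the pericyte and smooth muscle list (12561) and the dental mesenchyme list (92108). Their part in the tissue scores of the IGF genes was not tested.

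Ordered by mean score per kilobase, the 0 h cells had Igfbp3 at the top (4534), then Igfbp4 (3751), Igf2 (3295), Igfbp2 (3019), Igf1 (1532), Igf2r (1375), Igfbp5 (1188), Igfbp7 (440.0), Igf1r (187) and Igfbp6 (4.796). The ranges of neighbours overlapped between Igfbp4 and Igf2, Igf2 and Igfbp2, Igf1 and Igf2r, and Igf2r and Igfbp5. At 48 h the order was Igfbp2 (16517), Igf2 (2828), Igf2r (1706), Igfbp7 (1539), Igfbp6 (815), Igfbp3 (668), Igfbp4 (456), Igf1 (380), Igf1r (285) and Igfbp5 (89.1). Igf2r and Igfbp7 overlapped, as did Igfbp6 and Igfbp3, Igfbp3 and Igfbp4, and Igfbp4 and Igf1. Igf2 was among the highest 3 at both times, with and without division by length. The place of Igfbp3 depends on that division: its undivided mean score at 0 h (10976) was below those of Igfbp4 (14369), Igf2r (12219) and Igf2 (12217), and at 48 h (1618) it was above that of Igfbp6 (906).

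For each gene the 2 transcripts with the most similar course were named by Pearson's r of log2(score + 1) over the 14 mDMC libraries, which share the step from 0 h to culture. They were Ttll7 and Tagln2 for Igfbp6, H2afy2 and She for Igfbp4, Pik3c2a and Tlr4 for Igfbp2, Parp3 and Sync for Igfbp7, Bmp7 and Dcaf8 for Igfbp5, and Dlx6os1 and Bzw2 for Igfbp3, with r between 0.977 and 0.997. For Igf1 they were Itgb5 and Arap1, for Igf1r Ripor1 and Plxna1, for Igf2r Mtus1 and Mapk1ip1, with r between 0.934 and 0.966. For Igf2 the closest, Etl4 and Rnf10, reached 0.878 and 0.864.

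Around the 10 genes, the enzymes that cut the binding proteins, taken with their regulators, were more often higher than lower after culture. Of 18 IGFBP proteases and regulators tested, 12 were higher and 4 lower at 48 h than at 0 h (median log2 difference 0.94, against 0.03 over all transcripts, of which 37.1% were higher and 34% lower). Pappa, which encodes the IGFBP4 protease PAPP-A, went from 144 to 163 at 0 h to 2196 to 3013 at 48 h (log2 difference 3.99, SE 0.18, adjusted p = 1.36e-09). Stc2, whose product stanniocalcin-2 inhibits PAPP-A, went from 10 to 30 to 599 to 1438 (5.90, SE 0.40, adjusted p = 4.29e-08). The metalloprotease gene Mmp3 rose by 4.39 on the log2 scale (SE 0.50). Its scores were 6, 8 and 11 at 0 h and 354, 98 and 196 at 48 h, so the size depends on the pseudocount. The 4 that were lower, named after their values were seen, were Pappa2 (-1.97), which encodes a protease of IGFBP3 and IGFBP5, Mmp2 (-1.20), Stc1 (-0.84) and Adamts1 (-0.75).

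Of 9 genes whose proteins carry an IGFBP-type amino-terminal domain, 6 were higher at 48 h and 1 was lower (median log2 difference 1.94), where 37.1% of all transcripts passed as higher and 34% as lower (median 0.03). Ccn3 rose by 5.89 (SE 0.26), Ccn5 by 5.64 (SE 0.58) and Ccn2 by 3.80 (SE 0.28), all matricellular proteins of the CCN family, and Crim1, a transmembrane protein that binds BMPs, by 3.03 (SE 0.09). At 0 h Ccn5 scored only 4 to 5, so its size depends on the pseudocount. The lower one was Esm1 (-1.08, adjusted p = 0.0496), an endothelial gene named after its value was seen. Htra1 is in this list and in the protease list.

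Of 15 other receptors, adaptors and feedback genes of the axis, 2 were higher and 9 lower at 48 h (median log2 difference -0.48). Among all transcripts 37.1% passed as higher and 34% as lower (median 0.03). Socs3, a feedback inhibitor of cytokine and IGF signalling, went from 3076 to 6074 at 0 h to 339 to 461 at 48 h (log2 difference -3.59, SE 0.24). The adaptor gene Gab1 (-2.67, SE 0.27) and Socs1 (-1.46, SE 0.22) were lower too. Irs4, an insulin receptor substrate, rose from 18 to 25 to 198 to 257 (log2 difference 3.33, SE 0.31, adjusted p = 8.43e-07), and the other one higher, Ptpn11 (0.41), was named after its value was seen. Of 26 PI3K, AKT and mTOR genes, 10 were higher and 6 lower (median 0.08), and over all transcripts 37.1% were higher and 34% lower, so that the count higher lay near the background. Pik3cb (2.24, SE 0.19), the mTOR inhibitor Deptor (1.98, SE 0.29) and the translation repressor Eif4ebp1 (1.72, SE 0.08) differed the most, all higher. Of 16 FoxO-responsive genes 6 were higher and 7 lower (median -0.28), the count higher again near the background. Cited2 (2.64, SE 0.31), Klf15 (1.93, SE 0.59) and Bcl6 (1.83, SE 0.34) were higher and the sestrin gene Sesn3 (-1.78, SE 0.16) lower. Klf15 scored only 9 to 14 at 0 h, so its size depends on the pseudocount. At 48 h it scored 107, 35 and 29, with replicate 1 above the others. Insr and Irs2 are in both the receptor and the FoxO list.

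Among 9 genes that neighbour Igf2 or regulate its mRNA, 2 were higher and 6 lower at 48 h (median log2 difference -0.50), set against 37.1% and 34% of all transcripts. Hmga2 (2.49, SE 0.22) and Hmga1 (2.30, SE 0.22), architectural chromatin proteins, were higher, and Plagl1 (-2.04, SE 0.36), an imprinted zinc finger factor, and Lin28b (-1.92, SE 0.31), an RNA-binding protein, were lower. H19, named for its place 72.6 kb from Igf2, scored 127101, 127101 and 70596 at 0 h and 40633, 36369 and 36369 at 48 h (lower, adjusted p = 0.00022). Replicates 1 and 2 of 0 h were at 127101, the largest score in the table, so the size of the fall is limited by that ceiling and is not given. Igf2 and H19 thus differed in their calls over the same interval, and the difference between them was not tested.

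**Figure D4:**
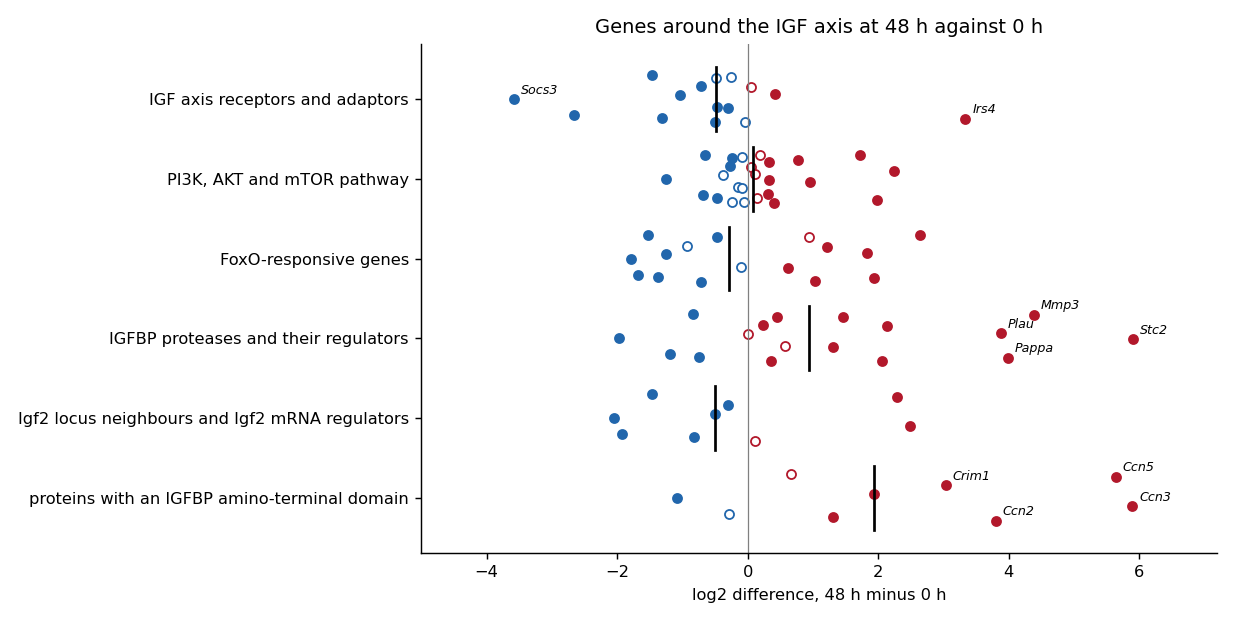
Log2 difference from 0 h to 48 h of the genes of 6 lists around the IGF axis (red higher, blue lower; filled symbols passed an adjusted p of 0.05), with the median of each list as a line. Of the listed genes, 2 that enter the medians are not drawn. The medians run from -0.50 for the Igf2 neighbours and regulators to 1.94 for the proteins with an IGFBP amino-terminal domain.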

How the data were processed

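Libraries were made with the Illumina TruSeq RNA kit from total RNA and sequenced on a HiSeq, and per the study's methods and labels the authors mapped the reads to the mouse transcriptome (mm10, Ensembl) with bowtie and RSEM (version 1.1.21 in the submitters' processing notes). The deposited values are scores: 1 table of whole numbers for 12089 transcripts in 15 libraries, brought by the authors to nearly equal totals (21357605 to 21365980) by a step not given in the sources used here. Because they are not counts, depth is unknown, no counting interval can be given, and the count test of the study could not be used.

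Transcripts were named with GENCODE vM21 (GRCm38), which matched 11973 of them to a gene and left 116 unmatched. The members and gene lists were chosen with earlier results of these data known. limma 3.58.1 (R 4.3.3) was fitted to log2(score + 1) over the 14 mDMC libraries, with 1 mean per time point, an intensity trend and no block, for the 12079 transcripts that reached 1 ppm of the total in 2 or more libraries. The tests were two-sided and 8 comparisons were made, each with Benjamini-Hochberg adjustment over all transcripts tested. The tissue library, which has no replicate, was left out of the fit. Fold changes are on the log2(score + 1) scale and understate the change of low genes. Scores were divided by the length of the listed transcript to compare genes. The fit was tested on simulated data. Named genes were all members, up to 4 called genes with the largest difference at 48 h from each list, up to 3 markers per cell type with the highest 0 h score, and the 2 most similar transcripts for each member. Of the genes this rule names, 2 are counted in their lists but not reported here. Alternatives were the pseudocount, scaling, filter, trend, samples in the fit, threshold, replicate number as a block, and leaving out each library. Averaging replicates 1 and 2 of 36 h and using the longest annotated transcript were chosen after seeing the data.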

Additional observations from a re-analysis of the deposited data

How the results depend on the processing

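The 80 differences (10 genes in 8 comparisons) were recomputed under 24 alternatives; 1829 values kept direction and side of the threshold, 49 fell short of it, 17 newly passed it and 17 changed sign. The counts against 0 h stayed at 3 to 5 higher and 3 to 5 lower without any one library. The cause of the changes was not tested. Igfbp6 drops out where 1 ppm is required in all 14 libraries. Depth is unknown, so the precision of low scores, above all Igfbp6 at 0 h, cannot be given.

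Whether the replicate number pairs the libraries was not settled. Deviations from the group means correlated between same-numbered libraries with a mean r of 0.0768 (-0.25 to 0.318, 11 of 26 pairs over 0.1). Between different-numbered libraries the mean r was -0.0384 (-0.477 to 0.477, 6 of 52 pairs over 0.1). The deviations are centred within each group, so the 2 means are not independent of each other. With the replicate number as a block, 2 members instead of 1 were lower at 24 h than at 12 h, Igfbp5 now among them (-1.03, adjusted p = 0.05), and Igf2r passed against 0 h at 12 h (-0.59, adjusted p = 0.0268) and 24 h (-0.45, 0.0419); it changed no other member's call.

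Among counts, the threshold of an unadjusted p under 0.05 with a fold above 2 gave 2 higher at 12 h against 0 h, 2 lower at 24 h against 12 h, 2 higher and 1 lower at 36 h against 24 h, and 0 and 0 at 48 h against 24 h; an adjusted p with a fold above 2 gave the same values, except at 24 h against 12 h, where 1 was lower. Fitting only the 2 compared time points gave 1 higher and 1 lower at 48 h against 24 h, and a fit without the trend 1 lower. Averaging replicates 1 and 2 of 36 h gave 1 higher at 36 h against 24 h and 1 lower at 48 h against 24 h. Without any one replicate, the count lower at 24 h against 12 h ranged from 1 to 3, the count higher at 36 h against 24 h from 0 to 4, and at 48 h against 24 h from 0 to 3 higher and 1 to 2 lower. Of the lists at 48 h, the unadjusted threshold gave 1 higher and 5 lower for receptors and adaptors, 4 higher and 1 lower for the PI3K, AKT and mTOR genes, 2 lower for the IGFBP proteases and 3 lower for the Igf2 neighbours and regulators.

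Values that changed sign were all below the threshold on both sides. Igf2 at 36 h against 0 h (0.02) was -0.0044 with trimmed-mean factors and -0.022 with the averaged libraries, and -0.094 to 0.092 without one replicate. The other ranges without one replicate were, for Igf2, -0.27 to 0.93 at 12 h against 0 h (passing at the upper end) and -0.061 to 0.38 at 48 h against 24 h, for Igf1 -0.14 to 0.98 at 48 h against 24 h (passing at the upper end), for Igf1r -0.49 to 0.39 at 24 h against 12 h, for Igf2r -0.18 to 0.25 at 24 h against 12 h and -0.29 to 0.028 at 48 h against 36 h, for Igfbp2 -0.15 to 0.54 and for Igfbp6 -0.069 to 0.45 at 48 h against 24 h, and at 48 h against 36 h for Igfbp5 -0.30 to 0.38 and for Igfbp7 -0.21 to 0.065.

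Without division by length, the shares of the Igfbp sum at 0 h and 48 h were 10.6% and 76.0% for Igfbp2, 29.8% and 6.02% for Igfbp3, 39.0% and 6.29% for Igfbp4, 19.1% and 1.85% for Igfbp5, 1.45% and 6.53% for Igfbp7, and 0.0143% at 0 h for Igfbp6. The listed transcript was the longest annotated one for all 6 genes, so that alternative left the shares as they were.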
